A study of Homo sapiens with 5 samples.

Results

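The genes described here are 10 cyclic nucleotide phosphodiesterase genes, PDE1A, PDE1C, PDE3A, PDE4A, PDE4B, PDE4D, PDE5A, PDE7B, PDE8A and PDE10A, of the 57905 genes with counts. They were chosen by symbol with the measured difference between edited and wild-type libraries already known, so their values in that comparison are given as a description, with no test. Total RNA was sequenced from edited derivatives of SVG-10B1, an established line of human astroglial origin grown with fetal calf serum, that carry IDH1 R132H in 1 allele beside the wild-type allele, and from the unedited line. The edited libraries comprised 1 library of clone 2 and 2 libraries (replicates 1 and 2) of clone 6, against 2 libraries (replicates 1 and 2) of the wild-type line, which the labels call clone 1. Each edited line is 1 clone and no further unedited clone was analysed here, so the genotype and the history of a clone cannot be told apart. The labels do not say that replicates came from separate cultures, and n counts libraries, so every p-value measures only the spread between these libraries, which may be technical.

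Cyclic AMP and cyclic GMP are second messengers made by adenylyl and guanylyl cyclases, and phosphodiesterases end their signal by hydrolysing them to the 5′ monophosphates. The family is divided by substrate into enzymes that take cAMP (PDE4, PDE7, PDE8), enzymes that take cGMP (PDE5, PDE6, PDE9) and enzymes that take both (PDE1, PDE2, PDE3, PDE10, PDE11). In astrocytes, cAMP signalling is known to act on cell shape, glycogen breakdown and gene transcription, and PDE4 enzymes account for much of its hydrolysis in brain.

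IDH1, the edited gene, had 110 CPM (counts scaled to a common library size) in clone 2 and 104 and 108 CPM in clone 6, against 119 and 117 CPM in wild type. Its log2 fold change was -0.13 (SE 0.08) and was not called (edgeR quasi-likelihood test, adjusted p = 0.313); gene counts do not show the edit itself. The 5 libraries held 13572114 to 21881726 reads in genes, so that 1 read corresponded to between 0.0462 and 0.0765 CPM. By the median absolute log2 difference per gene, clone 2 and clone 6 replicate 1 were nearly identical, at 0.11. It was 0.29 between the 2 clone 6 libraries and 0.15 between the 2 wild-type libraries. The SD of the log2 difference was 0.368, against 0.616 and 0.386 in the same order. By that measure clone 2 and clone 6 replicate 1 were about as far apart as the wild-type pair. Clone 2 and clone 6 replicate 1 were thus closer to each other by both measures than the 2 libraries labelled clone 6 were. Both carry replicate number 1, and the cause of their likeness was not tested. Results that change without one of them are given with that value. Of 12 astrocyte markers, 5 exceeded 1 CPM in every library, AQP4 and FABP7 had 0 reads throughout, and GFAP had 0.312 to 0.612 CPM in edited and 0.385 to 0.415 CPM in wild-type libraries. In bulk RNA, fewer cells expressing a gene and less RNA per cell cannot be told apart.

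Promoter sequences of all 10 genes were taken from RefSeq (GRCh38.p14), which gave 42 windows from 250 bases before to 50 bases after an annotated start. They were searched on both strands for the cAMP response element TGACGTCA, bound by CREB family factors, and for its core TGACG, which is written as CGTCA when it lies on the other strand; every full element also contains the core. The full element was present in 2 windows, 1 each of PDE4A and PDE7B, and the core in 4 windows, 1 each of PDE4A, PDE4D, PDE5A and PDE7B. Over all 35116 RefSeq windows of this length, 1.85% held the full element and 24.6% the core. Shown are the PDE1C window at the annotated gene start, because PDE1C had the largest fold difference, and the windows of PDE4A, PDE7B and PDE5A that hold the element or its core, with matches in capitals. PDE1C lies on the minus strand at chr7:32299279-32299578, PDE4A on the plus strand at chr19:10416523-10416822, PDE7B on the plus strand at chr6:135851451-135851750 and PDE5A on the minus strand at chr4:119627991-119628290.
PDE1C: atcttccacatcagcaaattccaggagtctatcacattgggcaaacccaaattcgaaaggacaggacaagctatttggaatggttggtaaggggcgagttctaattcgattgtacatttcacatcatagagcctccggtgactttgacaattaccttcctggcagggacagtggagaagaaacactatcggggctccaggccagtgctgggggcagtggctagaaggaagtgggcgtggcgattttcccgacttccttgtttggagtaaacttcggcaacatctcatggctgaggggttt
PDE4A: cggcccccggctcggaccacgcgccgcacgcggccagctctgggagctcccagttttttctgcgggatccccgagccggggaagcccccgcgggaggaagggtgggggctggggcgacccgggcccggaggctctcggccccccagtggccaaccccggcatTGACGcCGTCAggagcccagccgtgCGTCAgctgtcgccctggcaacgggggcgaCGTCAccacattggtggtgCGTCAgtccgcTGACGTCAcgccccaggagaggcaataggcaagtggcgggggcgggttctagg
PDE7B: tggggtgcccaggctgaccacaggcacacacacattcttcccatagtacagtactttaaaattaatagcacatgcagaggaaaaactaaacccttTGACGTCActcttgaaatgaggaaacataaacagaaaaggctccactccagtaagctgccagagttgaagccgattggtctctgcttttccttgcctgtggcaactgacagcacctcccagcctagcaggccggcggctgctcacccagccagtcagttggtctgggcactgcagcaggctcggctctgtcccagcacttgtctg
PDE5A: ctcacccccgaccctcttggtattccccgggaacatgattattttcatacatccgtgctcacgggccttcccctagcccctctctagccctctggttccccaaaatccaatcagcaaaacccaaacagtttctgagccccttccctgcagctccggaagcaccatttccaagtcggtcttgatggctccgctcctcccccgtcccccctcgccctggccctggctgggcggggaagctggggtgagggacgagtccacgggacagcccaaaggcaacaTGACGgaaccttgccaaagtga
The PDE4A window held 7 core matches, 2 of them within the full element that begins 3 bases before the annotated start. The full element of PDE7B began 155 bases before its start, and the core match of PDE5A lay within the transcribed bases. The 6 PDE1C windows held neither pattern. A match is a string of letters and not a shown binding site, and gene counts do not tell which of a gene's starts was in use.

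Of the 10 genes, 8 passed the filter on low counts. Among these 8, all 3 edited libraries lay below both wild-type libraries for PDE1C, PDE3A, PDE4B and PDE8A, where 25.3% of all genes tested did so. All edited libraries lay above both wild-type libraries for PDE4A and PDE5A, where 26.1% of all genes tested did so. The libraries overlapped for PDE4D and PDE7B. The median log2 fold change over the 8 genes was -0.75, beside 0.02 over all 16471 genes tested; since the genes were chosen on these values, nothing is read from these shares. With each library left out in turn and under the other alternatives, the log2 fold change was -8.8 to -7.87 for PDE1C, -4.18 to -3.15 for PDE3A, -1.57 to -0.87 for PDE4B, 1.88 to 2.41 for PDE4A and 1.56 to 2.02 for PDE5A, so these directions held without either of the near-identical libraries and with both summed into 1. PDE1A and PDE10A were close to 0 in every library and had no fitted fold change.

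**Figure D1:**
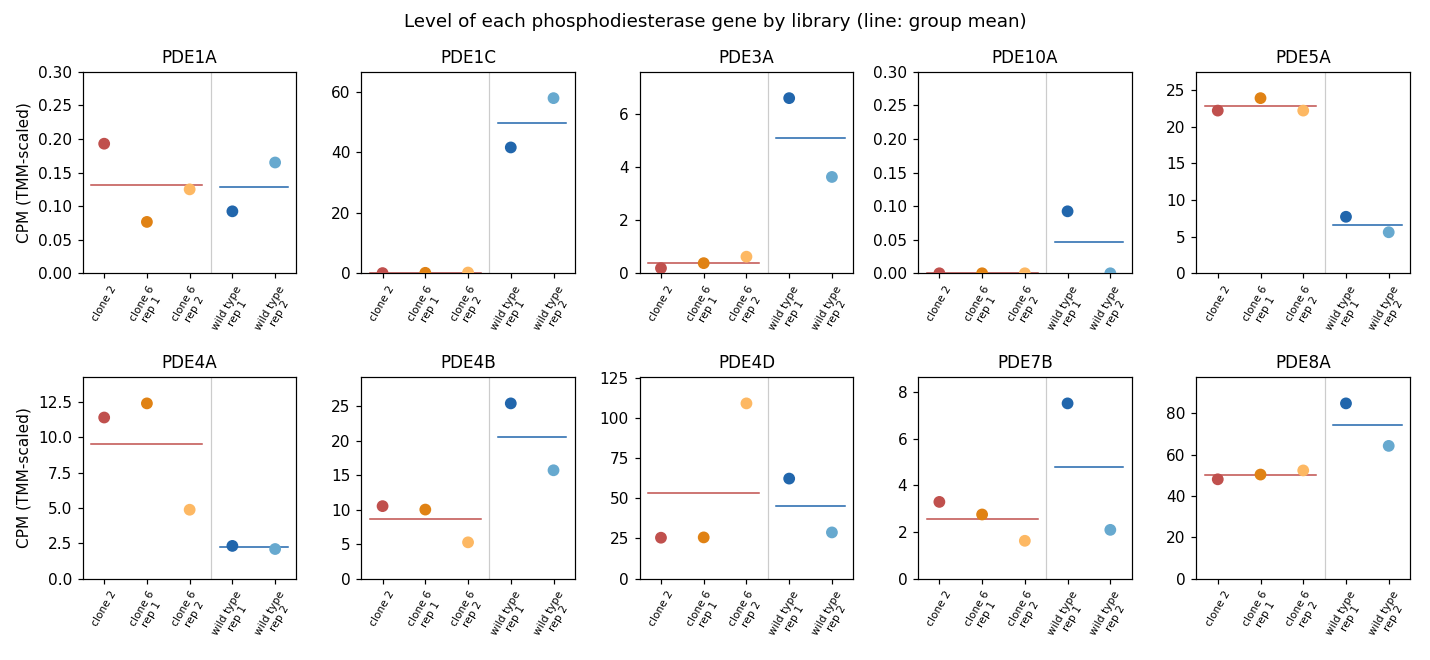
Level of each of the 10 phosphodiesterase genes in CPM on TMM-scaled library sizes (y axis, own scale per panel) by library (x axis, edited libraries left of wild type); points are libraries and lines group means. PDE1C and PDE3A lie near 0 in the 3 edited libraries, PDE4A and PDE5A lie above both wild-type libraries, and PDE4D is high in clone 6 replicate 2 alone among the edited libraries.

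Of the enzymes that hydrolyse both nucleotides, PDE1C, a phosphodiesterase activated by calcium and calmodulin, was close to 0 in the edited libraries. It had 0.0644 CPM in the clone 2 library and 0.153 and 0.25 CPM in clone 6, against 41.6 and 57.9 CPM in wild type. These were 1, 2 and 4 reads in the edited libraries, against 901 and 1053 reads in wild type, so every edited library was close to 0 and the groups did not overlap. The fitted log2 fold change was -8.24 (SE 0.32). The ratio of wild-type to edited reads at equal depth was 312 (exact 95% interval 151 to 778, counting error only). With 7 edited reads, the SE, which is derived from the F test, is smaller than this counting error. PDE1A, a second calmodulin-dependent member, had 3, 1 and 2 reads in the edited libraries, against 2 and 3 reads in wild type. Its level was at the edge of detection in both groups, and the edited to wild-type ratio of 1.07 had an interval of 0.273 to 4.44.

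PDE3A hydrolyses cAMP and is inhibited by cGMP, and it is well known from heart, platelets and vascular smooth muscle. It had 0.193 CPM in the clone 2 library and 0.382 and 0.625 CPM in clone 6, against 6.6 and 3.63 CPM in wild type. All edited libraries held 10 reads or fewer, against 143 and 66 reads in wild type, and the groups did not overlap. The log2 fold change was -3.65 (SE 0.46), the wild-type libraries differing by 1.82-fold between themselves. PDE10A, an enzyme known best from striatal neurons, had 0 reads in each edited library, against 2 and 0 reads in wild type, and no fold is given.

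PDE5A, the cGMP-specific enzyme that is the target of sildenafil, stood higher in the edited libraries, which differed little among themselves. It had 22.2 CPM in the clone 2 library and 23.9 and 22.2 CPM in clone 6, against 7.71 and 5.6 CPM in wild type. The means were 22.8 ± 0.96 CPM in edited (SD, n = 3) and 6.66 ± 1.49 CPM in wild-type libraries (SD, n = 2), a 3.42-fold difference with a log2 fold change of 1.77 (SE 0.17). Its exons share 542 bases (5.54%) with an antisense gene on the other strand, RP11-33B1.1. That gene had 103, 76 and 106 reads in the edited libraries, against 123 and 115 reads in wild type. With the strand setting of the counting unknown, reads of the shared bases cannot be assigned to one of the pair.

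The 3 PDE4 genes encode cAMP-specific enzymes that are inhibited by rolipram and act as locally tethered regulators of cAMP, and their differences between the groups were not in 1 direction. PDE4A had 11.4 CPM in the clone 2 library and 12.4 and 4.87 CPM in clone 6, against 2.31 and 2.09 CPM in wild type. It was above wild type in every edited library, by 4.35-fold on the means (log2 fold change 2.11, SE 0.42), with clone 6 replicate 2 the lowest of them. PDE4B had 10.5 CPM in the clone 2 library and 10.0 and 5.25 CPM in clone 6, against 25.4 and 15.7 CPM in wild type. It lay in the opposite direction to PDE4A, with means of 8.59 ± 2.9 CPM in edited (SD, n = 3) and 20.5 ± 6.91 CPM in wild-type libraries (SD, n = 2) and a log2 fold change of -1.26 (SE 0.33). PDE4D had 25.4 CPM in the clone 2 library and 25.6 and 109 CPM in clone 6, against 62.2 and 28.7 CPM in wild type. Clone 6 replicate 2 stood 4.24-fold above clone 6 replicate 1 and 4.28-fold above clone 2, and the wild-type libraries differed by 2.17-fold, so the groups overlapped. The log2 fold change of PDE4D, 0.23 (SE 0.68), was within this spread and turned to -0.85 without clone 6 replicate 2 and to -0.22 without wild-type replicate 2. COL1A1, which makes up most of the summed level of the fibroblast markers, was also lowest in clone 6 replicate 2, at 511 CPM beside 1600 CPM in the clone 2 library and 1640 CPM in clone 6 replicate 1, against 1890 and 1690 CPM in wild type. COL3A1 (18.2 CPM beside 39.6 and 40.2 CPM) and PDGFRA (1.5 CPM beside 5.28 and 5.51 CPM) were likewise lowest there among the edited libraries. So was COL1A2, at 0 reads beside 9 and 1. FAP was the only tested fibroblast marker not lowest there, at 5.37 CPM beside 3.99 and 3.98 CPM. The part of these differences in the PDE4 values was not tested.

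PDE8A, a cAMP-specific enzyme of high affinity that rolipram does not inhibit, had 48.1 CPM in the clone 2 library and 50.4 and 52.4 CPM in clone 6, against 84.9 and 64.3 CPM in wild type. The groups did not overlap, and the means were 50.3 ± 2.14 CPM in edited (SD, n = 3) and 74.6 ± 14.6 CPM in wild-type libraries (SD, n = 2). The log2 fold change was -0.57 (SE 0.13), and it was -0.36 without wild-type replicate 1. PDE7B, a cAMP-specific enzyme found in brain, had 3.29 CPM in the clone 2 library and 2.75 and 1.62 CPM in clone 6, against 7.52 and 2.09 CPM in wild type. The wild-type libraries differed by 3.6-fold, more than the difference between the groups, and the log2 fold change of -0.93 (SE 0.54) turned to 0.28 without wild-type replicate 1.

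Divided by exonic length, levels can be set side by side between genes, but only roughly. The length counts all exons annotated for a gene (16.3 kb for PDE4D, 7.89 kb for PDE8A), not those of the transcripts in use. A gene with many alternative exons can thus be placed too low, and the gene models behind the counts are unknown. The ranks and shares below carry this limit. By the group means, PDE8A was the highest of the 10 genes in both groups. It was at 6.38 ± 0.27 CPM per kb in edited (SD, n = 3) and 9.46 ± 1.85 CPM per kb in wild-type libraries (SD, n = 2). In clone 6 replicate 2 it was level with PDE4D, at 6.64 beside 6.66 CPM per kb. PDE1C ranked 9 of 10 in edited libraries at 0.0113 CPM per kb, against rank 2 in wild type at 3.6 CPM per kb. PDE5A ranked 3 at 2.33 CPM per kb in edited libraries, against rank 6 at 0.681 CPM per kb in wild type, and PDE4A ranked 4 at 1.44 CPM per kb, against rank 8 at 0.331 CPM per kb. In edited libraries PDE4D, at 3.26 ± 2.94 CPM per kb, did not separate from PDE5A at 2.33 ± 0.1 or PDE4A at 1.44 ± 0.61 CPM per kb (SD, n = 3). In wild type, PDE1C, PDE4D and PDE4B (3.6 ± 0.83, 2.79 ± 1.45 and 2.38 ± 0.8 CPM per kb, SD, n = 2) likewise lay within their spread.

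Summed over all catalytic phosphodiesterase genes by substrate, the mix of levels differed most in the enzymes that take both nucleotides. They made up 0.455% of the summed CPM per kb in clone 2 and 0.486 and 0.56% in clone 6, against 13.5 and 20.7% in wild type, nearly all of which was PDE1C and PDE3A. The cGMP-specific genes made up 17.9% in clone 2 and 18.3 and 15.5% in clone 6, against 7.4 and 9.01% in wild type. The cAMP-specific genes were the largest class throughout, at 81.7% in clone 2 and 81.2 and 84.0% in clone 6, against 79.1 and 70.3% in wild type. These are shares of transcript level, not of enzyme or activity, and follow from the values that chose the genes.

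Within PDE4, the share of PDE4A was 37.7% in clone 2 and 40.1 and 9.16% in clone 6, against 4.8 and 8.02% in wild type. PDE4B held 26.7% in clone 2 and 24.9 and 7.58% in clone 6, against 40.7 and 46.2% in wild type. PDE4D held 34.2% in clone 2 and 33.8 and 83.1% in clone 6, against 52.7 and 44.9% in wild type. Clone 2 and clone 6 replicate 1 thus had a mix of 3 genes at like levels, whereas clone 6 replicate 2 was mostly PDE4D. The summed PDE4 level was 4.55 CPM per kb in clone 2 and 4.65 and 8.01 in clone 6, against 7.23 and 3.92 in wild type, so the totals overlapped.

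**Figure D2:**
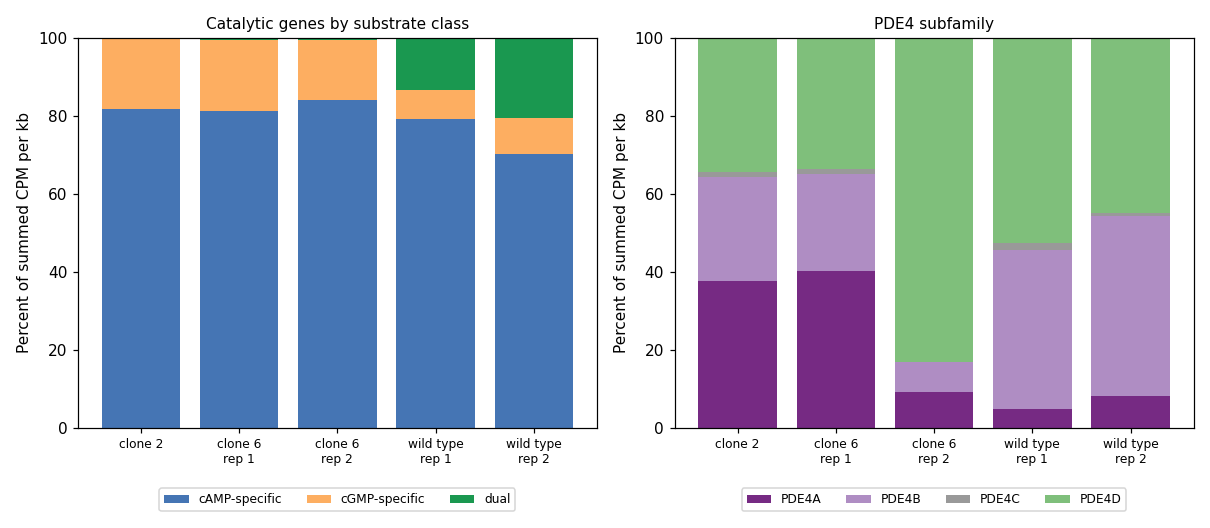
Percent of summed CPM per kb (y axis) in each library (x axis, edited left of wild type), by substrate class over all catalytic phosphodiesterase genes (left panel) and by gene within the PDE4 subfamily (right panel); bars are single libraries. The dual class is under 1% in each edited library and 13.5 and 20.7% in wild type, and PDE4D makes up 83.1% of PDE4 in clone 6 replicate 2.

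The clones were compared with each other in a fit with 3 groups, a contrast that was not used to choose the genes. Of the 8 genes tested, 0 were called between clone 6 and clone 2 (adjusted p = 1 for each), and 0 of all genes tested were called (0%, edgeR quasi-likelihood test). At an unadjusted p below 0.05, edgeR gave 114 genes and DESeq2 59, of which 2 passed adjustment in DESeq2; 0 of the phosphodiesterase genes described here were among any of them. The log2 difference, clone 6 minus clone 2, was 0.06 (SE 0.24) for PDE5A and 0.1 (SE 0.2) for PDE8A. These were the most precise of the set. It was 1.41 (SE 0.84) for PDE4D, -0.41 (SE 0.5) for PDE4A, -0.47 (SE 0.44) for PDE4B and -0.6 (SE 0.76) for PDE7B. For PDE1C and PDE3A it was 1.57 (SE 1.09) and 1.37 (SE 0.92) at 10 reads or fewer in every edited library. The errors come from the wild-type pair and the clone 6 pair together, with 1 clone 2 library and 2 residual degrees of freedom. Fewer genes passed the unadjusted threshold than it would give with no true difference. The contrast was thus conservative, and its lack of calls does not show that the clones are alike. Without clone 6 replicate 1, PDE4D was 2.1 higher (edgeR adjusted p = 0.0242) and PDE4A 1.23 lower in clone 6 on the log2 scale (log2 difference -1.23, adjusted p = 0.0402), in a fit that called 872 genes and assumed that each lone clone library varies like the wild-type pair. Without clone 6 replicate 2 the PDE4D difference was 0.01, and without a filter on low counts PDE4D was called at 1.43 (adjusted p = 1.48e-06).

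Of the other 14 cyclic nucleotide phosphodiesterase genes, 8 were tested, and 1 was higher and 0 lower in edited libraries, where 7.64% of all genes tested were called higher and 9.49% lower. The gene was PDE8B, the second PDE8 enzyme, at 8.96 CPM in the clone 2 library and 9.25 and 9.43 CPM in clone 6, against 4.75 and 3.46 CPM in wild type. It rose by 1.16 on the log2 scale (SE 0.19, edgeR adjusted p = 0.00911; adjusted p = 0.0773 without wild-type replicate 2). PDE8B made up 17.4% of the summed PDE8 level in clone 2 and 17.3 and 17% in clone 6, against 5.98 and 5.76% in wild type. The remaining 7 were not called (edgeR adjusted p = 0.0733 to 0.997). Their log2 fold changes were -0.98 for PDE4C, 1.7 for PDE6A, -0.54 for PDE6B, 0.93 for PDE6G and 0 for PDE9A. PDE6D, which encodes a chaperone of prenylated proteins and not a catalytic chain, had -0.39, and PDE7A -0.34. Without clone 6 replicate 2, PDE6D (adjusted p = 0.02) and PDE6B (adjusted p = 0.027) passed the threshold.

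**Figure D3:**
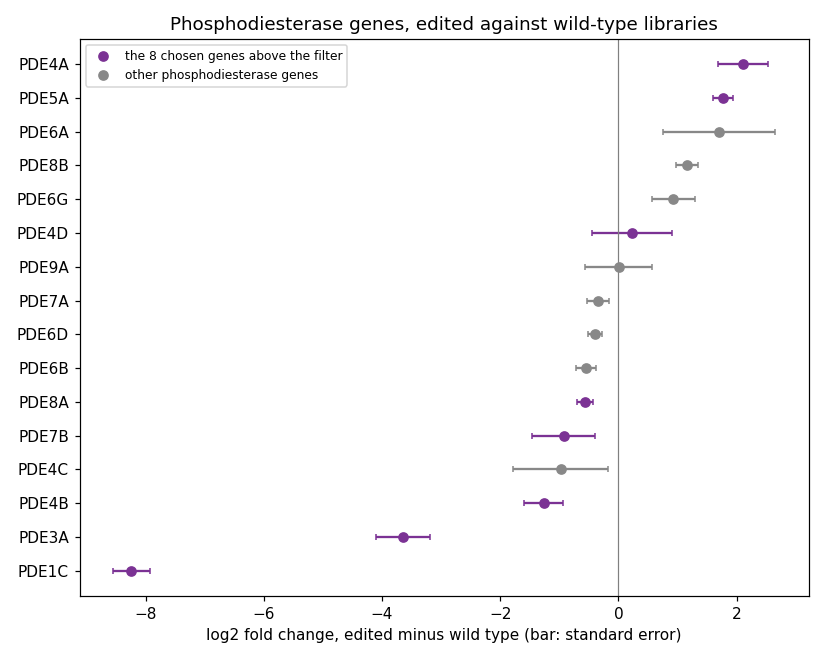
Log2 fold change, edited minus wild type (x axis), of every phosphodiesterase gene that passed the filter on low counts (y axis). Points are fitted values, and bars are standard errors derived from the F test over 5 libraries, which can be smaller than counting error at few reads. Colour separates the 8 chosen genes from the others. PDE1C at -8.24 and PDE3A at -3.65 lie furthest below 0, and PDE4A at 2.11 and PDE5A at 1.77 lie above 0.

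The genes around the phosphodiesterases in cyclic nucleotide signalling were taken from lists of 134 genes, the 14 other phosphodiesterases among them. Of these, 93 were tested, 14 were higher and 11 lower in edited libraries, or 15.1% and 11.8%, beside 7.64% higher and 9.49% lower over all genes tested. The median log2 fold change was 0.02, as over all genes tested. The lists were chosen with earlier results of these data known. These shares, and those of single lists below, are therefore a description, and no enrichment is read from them. The count of 25 calls moved with the libraries used. Leaving out wild-type replicate 1 gave 5 calls and leaving out wild-type replicate 2 gave 7. The fits that lacked the clone 2 library or clone 6 replicate 1 gave 14 each, and the fit that lacked clone 6 replicate 2 gave 45. The count was 15 with clone 2 and clone 6 replicate 1 summed into 1 library.

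At the making of the messengers, 0 of 5 tested adenylyl cyclase genes were called (edgeR quasi-likelihood test), and their median log2 fold change was 0.02. Of 5 tested genes of guanylyl cyclases and nitric oxide, 1 rose and 1 fell, with a median log2 fold change of 0.99. NPR3, the clearance receptor for natriuretic peptides, had 51.5 CPM in the clone 2 library and 50 and 30.1 CPM in clone 6, against 7.98 and 8.08 CPM in wild type. It rose by 2.45 on the log2 scale (SE 0.26, adjusted p = 0.0022) and was called in each of 11 alternatives. GUCY1B1, the beta subunit of the nitric oxide receptor cyclase, listed in the files as GUCY1B3, had 0.258 CPM in the clone 2 library and 0.306 and 0.187 CPM in clone 6, against 1.75 and 1.54 CPM in wild type. It fell by 2.7 on the log2 scale (SE 0.37, adjusted p = 0.00518; adjusted p = 0.0714 without wild-type replicate 1).

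Among 14 tested G protein subunits and receptors coupled to adenylyl cyclase, 6 rose (42.9%, beside 7.64% of all genes tested) and 1 fell, with a median log2 fold change of 0.34. ADRB1, the beta-1 adrenergic receptor, had 3.54 CPM in the clone 2 library and 3.82 and 3.19 CPM in clone 6, against 0.415 and 1.21 CPM in wild type (log2 fold change 2.14, SE 0.42, adjusted p = 0.0171). GNAL, a stimulatory G protein alpha subunit, had 7.6 CPM in the clone 2 library and 6.35 and 7.31 CPM in clone 6, against 2.49 and 2.09 CPM in wild type (1.62, SE 0.2, adjusted p = 0.0034), and was called in each of 11 alternatives. PTGER4, a prostaglandin E2 receptor that raises cAMP, had 27.3 CPM in the clone 2 library and 27.0 and 25.4 CPM in clone 6, against 8.12 and 14.1 CPM in wild type (1.26, SE 0.23, adjusted p = 0.0141). All 3 were above wild type in each edited library. The 6 that rose were not all stimulatory. GNAI3, an inhibitory G protein alpha subunit, had 284 CPM in the clone 2 library and 276 and 313 CPM in clone 6, against 166 and 177 CPM in wild type. Its log2 fold change was 0.76 (SE 0.1, edgeR adjusted p = 0.00385), and its call was lost in 1 of 11 alternatives. PTGIR, the prostacyclin receptor, fell to 0, 1 and 0 reads in the edited libraries, against 16 and 12 reads in wild type (adjusted p = 0.0152). The wild-type to edited ratio was 31.3 (exact 95% interval 5.18 to 1280). The wild-type libraries of ADRB1 differed, and its log2 fold change was 1.53 with wild-type replicate 1 left out and 3.06 with wild-type replicate 2 left out. Calls were lost for ADRB1 without wild-type replicate 1 or clone 6 replicate 1 (adjusted p up to 0.0838), for PTGER4 without wild-type replicate 1 (0.0607) and for PTGIR without wild-type replicate 2 (0.0885).

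Of 8 tested genes of protein kinase A and its inhibitors, 4 rose (50%, beside 7.64% of all genes tested) and 1 fell, with a median log2 fold change of 0.3. PKIB, an inhibitor of the catalytic subunit, had 11, 10 and 12 reads in the edited libraries, against 0 and 1 reads in wild type, a ratio of 29.5 with an exact 95% interval of 4.94 to 1200 (adjusted p = 0.0117). PRKAR2B, a type II regulatory subunit, rose by 0.71 (edgeR adjusted p = 0.0472) and PKIG, an inhibitor, by 0.51 (adjusted p = 0.049) on the log2 scale. The remaining gene that rose was PRKACB, a catalytic subunit, by 0.4 (edgeR adjusted p = 0.0465). Its call was lost in 7 of 11 alternatives. PRKAR1A, the type I regulatory subunit, fell by 0.38 on the log2 scale, to 136 CPM in the clone 2 library and 143 and 161 CPM in clone 6, against 198 and 183 CPM in wild type. Its edgeR adjusted p was 0.049998, just under the threshold of 0.05. The calls of PRKAR2B, PKIG and PRKAR1A were lost when any library other than clone 6 replicate 2 was left out, with the clone 2 and clone 6 replicate 1 libraries summed and with DESeq2 size factors (adjusted p up to 0.289). PKIB was not called without either wild-type library (adjusted p up to 0.0999).

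Among 6 tested other effectors, which include the exchange factors activated by cAMP, 1 fell: BVES, a cAMP-binding popeye protein, with a log2 fold change of -1.03 (SE 0.2, edgeR adjusted p = 0.0168). Of 13 tested anchoring proteins, which hold kinase A and phosphodiesterases at sites in the cell, 4 fell (30.8%, beside 9.49% of all genes tested) and 0 rose, although the median log2 fold change of the list was 0.01. AKAP7 had 0.515 CPM in the clone 2 library and 0.306 and 0.5 CPM in clone 6, against 2.45 and 1.26 CPM in wild type (-2.05, SE 0.43, adjusted p = 0.0218). PDE4DIP, known as myomegalin and found with PDE4D in the cell, had 93.7 CPM in the clone 2 library and 104 and 85.9 CPM in clone 6, against 137 and 130 CPM in wild type (-0.5, SE 0.11, adjusted p = 0.0218). AKAP13 fell by 0.42 (SE 0.1, adjusted p = 0.035). All edited libraries were below wild type for these genes. The calls of BVES, PDE4DIP and AKAP13 were lost without clone 2 or either wild-type library, and those of AKAP7 without clone 2, clone 6 replicate 1 or wild-type replicate 1 (adjusted p up to 0.26 among the 4 genes); AKAP13 was also lost without clone 6 replicate 1, and AKAP7 and AKAP13 with the near-identical libraries summed.

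Of 9 tested genes of calmodulin, its kinases and calcineurin, through which calcium acts on PDE1 enzymes, 1 rose and 0 fell (median log2 fold change 0.1). CAMK2D, a calmodulin-dependent kinase, rose by 0.71 on the log2 scale (SE 0.12, edgeR adjusted p = 0.00911). Of 8 tested genes of CREB factors and coactivators, 1 fell: CRTC3, a coactivator of CREB, had 23.9 CPM in the clone 2 library and 24.6 and 27.9 CPM in clone 6, against 43.7 and 43.1 CPM in wild type (-0.77, SE 0.11, adjusted p = 0.00627). Leaving out either wild-type library ended the calls of CAMK2D (adjusted p up to 0.103) and CRTC3 (up to 0.0788).

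Of 15 tested genes known to be induced through cAMP and CREB, 1 rose and 2 fell, with a median log2 fold change of -0.42. VGF, which encodes a secreted neuropeptide precursor, had 2.45 CPM in the clone 2 library and 2.75 and 4.25 CPM in clone 6, against 1.02 and 1.21 CPM in wild type (1.51, SE 0.33, edgeR adjusted p = 0.0257). NR4A1, an immediate early nuclear receptor, had 3.74 CPM in the clone 2 library and 3.82 and 4.93 CPM in clone 6, against 7.85 and 15.3 CPM in wild type (-1.46, SE 0.3, adjusted p = 0.0206). JUNB, an immediate early AP-1 factor, had 9.92 CPM in the clone 2 library and 12.6 and 13.1 CPM in clone 6, against 24.0 and 32.9 CPM in wild type (-1.26, SE 0.19, adjusted p = 0.00665). The list thus held calls in both directions, and 12 of its 15 tested genes were not called. Immediate early genes of the list also differed between libraries of 1 group, as in the following genes, which were chosen after their values were seen. FOS had 23.4 CPM in the clone 2 library and 23.3 and 51.2 CPM in clone 6, against 28.5 and 164 CPM in wild type. FOSB had 6.96 CPM in the clone 2 library and 5.2 and 19 CPM in clone 6, against 14.6 and 81 CPM in wild type. Wild-type replicate 2 and clone 6 replicate 2 were thus the higher libraries of their groups. NR4A1 and JUNB were likewise higher in wild-type replicate 2 than in replicate 1, and without it their log2 fold changes were -0.91 and -1.02. The part of this difference between libraries in their calls was not tested. The calls of VGF and NR4A1 were each lost in 4 of 11 alternatives (adjusted p up to 0.196), with clone 6 replicate 1 or wild-type replicate 2 left out among them, and that of JUNB without wild-type replicate 2 (0.0672). Neither of 2 tested exporters of cyclic nucleotides was called.

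**Figure D4:**
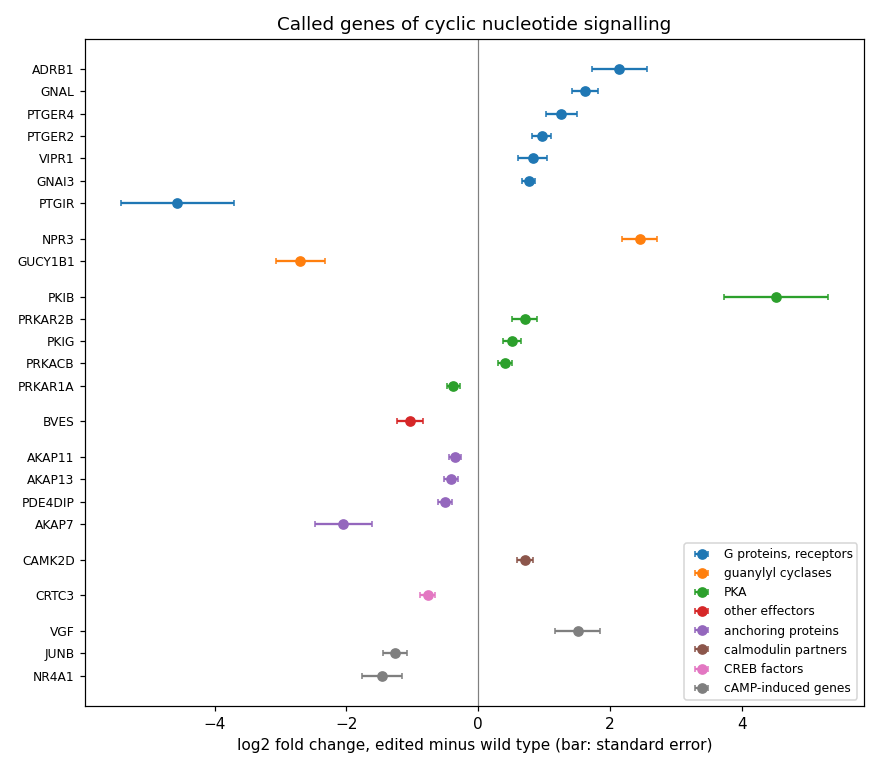
Log2 fold change, edited minus wild type (x axis), of the genes of cyclic nucleotide signalling called at an adjusted p below 0.05, other than phosphodiesterases (y axis, grouped by role). Points are fitted values, and bars are standard errors derived from the F test over 5 libraries, which can be smaller than counting error at few reads. The G protein and receptor group holds 6 points above 0 and 1 below, and all 4 anchoring proteins lie below 0; PTGIR rests on 1 read in the edited libraries and PKIB on 1 read in wild type.

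The genes with profiles most like PDE1C over the 5 libraries, by Euclidean distance between centred log2 CPM, were CHRDL1 (0.78), TNC (0.87) and CCL2 (0.91). CHRDL1, an inhibitor of bone morphogenetic proteins, had 0 CPM in each edited library, against 23.8 and 29.2 CPM in wild type. TNC, a matrix glycoprotein, had 0.838 CPM in the clone 2 library and 0.688 and 0.874 CPM in clone 6, against 213 and 224 CPM in wild type, and CCL2, a chemokine, had 0 CPM in each edited library, against 17.4 and 16.6 CPM in wild type. For PDE3A the nearest genes were MIR146A, the locus of a microRNA (0.43), TNFAIP6 (0.51) and PRRX2 (0.56). MIR146A had 1.03 CPM in the clone 2 library and 1.68 and 3.68 CPM in clone 6, against 27.2 and 13.4 CPM in wild type. These distances describe 5 libraries that fall into the same groups and carry no test.

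Several of these phosphodiesterases are known from smooth muscle and vessel wall, and markers of such cells differed between the same libraries. The summed level of 10 smooth muscle and pericyte markers was 234 to 329 CPM in edited and 452 to 482 CPM in wild-type libraries. Of the 9 of them tested, 1 rose and 5 fell, and none was at 0 in all libraries. The one that rose was RGS5, at 65 CPM in the clone 2 library and 64.9 and 25.9 CPM in clone 6, against 6.55 and 5.82 CPM in wild type. Those that fell were ACTA2, TAGLN, PDGFRB, ABCC9 and KCNJ8. TAGLN had the largest fall in CPM, to 45, 48.7 and 47.7 CPM in edited libraries, against 189 and 167 CPM in wild type. The summed level of 5 endothelial markers was 1.91 to 2.38 CPM in edited and 20.8 to 21.3 CPM in wild-type libraries, with 2 of 3 tested lower. Most of the wild-type sum was 1 gene, TIE1, at 19.3 and 18.9 CPM, against 1.29 CPM in the clone 2 library and 1.22 and 1.12 CPM in clone 6. FLT1, the other that fell, had 20 and 11 reads in wild type and 0 in each edited library. VWF was not called, at 0.966, 0.688 and 0.812 CPM in edited and 0.323 and 0.769 CPM in wild-type libraries. The summed level of 7 fibroblast markers was 536 to 1690 CPM in edited and 1860 to 2100 CPM in wild-type libraries, and of the 5 tested, 2 fell and 0 rose. The summed level of 12 astrocyte markers was 1090 to 1290 CPM in edited and 808 to 881 CPM in wild-type libraries, most of it from VIM, GJA1 and CLU. Of the 6 of them tested, 2 rose and 1 fell. The one that fell was NFIA, at 0.515 CPM in the clone 2 library and 0.841 and 0.5 CPM in clone 6, against 4.98 and 3.41 CPM in wild type. The part of these marker differences in the values of PDE1C, PDE3A and PDE5A was not tested. Markers of microglia summed to 0.937 to 1.3 CPM in edited and 1.54 to 2.49 CPM in wild-type libraries, with CX3CR1 at 0. Those of neurons summed to 4.87 to 8.05 CPM in edited and 7.03 to 7.57 CPM in wild-type libraries, with STMN2 at 0, and those of oligodendrocytes to 9.21 to 10.8 CPM in edited and 8.85 to 10.8 CPM in wild-type libraries, with MOG, MAG and OLIG2 at 0.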

How the data were processed

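The authors deposited raw read counts, 1 table of whole numbers for each library. Trimmomatic, STAR, HTSeq and hg19 (GRCh37) are named in the submitters' processing notes, with neither version nor role. For the gene models and strand option behind the counts, the sources used here give nothing. Of 63677 listed genes, 5772 had empty values and were treated as not measured. Where a symbol had several identifiers, the one with most reads was used. Libraries were grouped by the genotype and clone in the labels. Testing used edgeR 4.0.16 under R 4.3.3: TMM scaling, filterByExpr over the 3 groups (16471 genes kept) and the quasi-likelihood F test, with 3 residual degrees of freedom for edited against wild type and 2 for the clone contrast. A call is an adjusted p (Benjamini-Hochberg) below 0.05 over all genes tested. The procedure was checked on simulated counts. CPM used TMM-scaled library sizes, and log2 CPM a prior count of 2. Each SE is the absolute log2 fold change divided by the square root of its F statistic. At few reads it can be smaller than counting error. Ratios of reads have exact 95% intervals that cover counting error only.

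Exonic lengths and overlaps came from GENCODE 29 (GRCh38), joined by gene identifier, and promoters from RefSeq. Named genes were the 10 members, IDH1, each other tested phosphodiesterase gene and up to 3 called genes per direction in each pathway list. The 3 nearest profiles of the 2 members with the largest fold changes were also named. The marker lists and genes near them, and FOS, FOSB, GNAI3 and PRKACB, were named in addition. The plot of called pathway genes shows all called ones other than phosphodiesterases. The members, lists and rules were chosen with earlier results of these data known. Alternatives were DESeq2 1.42.0, its size factors, other filters, a replicate block, near-identical libraries summed and each library left out. Replicate numbers were not treated as pairs: they are shared by 2 pairs only, and nothing in the labels ties them.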

Additional observations from a re-analysis of the deposited data

How the results depend on the processing

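Directions of PDE1C, PDE3A, PDE4A, PDE4B, PDE5A and PDE8A were kept in all 11 alternatives. Overlap was counted only with other scalings of the libraries, with each library left out and with the near-identical libraries summed. There, 6 or 7 members had groups that did not overlap. The share over all genes was not computed for these settings, and groups of fewer libraries separate more easily, so nothing is read from this count. PDE4D reversed to -0.039 with the replicate block, to -0.22 without wild-type replicate 2 and to -0.85 without clone 6 replicate 2 (range with each library left out -0.85 to 0.89), and PDE7B to 0.28 without wild-type replicate 1 (range -1.56 to 0.28). The count of genes called between edited and wild-type libraries, 2822, was 4274 with no filter, 4499 with the replicate block, 1528 with clone 2 and clone 6 replicate 1 summed, and 500 to 5971 with each library left out. Pathway genes called, 25, were 36 with the replicate block, 15 with those libraries summed and 5 to 45 with each library left out. PDE6D passed the threshold with the replicate block (edgeR adjusted p = 0.0236). Between the clones, 0 genes were called (114 at an unadjusted edgeR p below 0.05), 2 with DESeq2, 99 with no filter and 0 to 872 with a library left out; of the members 0 were called, 1 with no filter and 0 to 2 with a library left out. The cause of these differences was not tested.

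The labels do not tie replicate numbers across groups: the replicate 1 minus 2 difference of wild type and that of clone 6 correlated at 0.17 over genes. The clone contrast has no value without clone 2 or with the libraries summed. Depth limits PDE1A and PDE10A, with at most 3 reads per library, and makes the fold of PDE1C depend on 7 edited reads.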
